A study of Homo sapiens with 12 samples.

Results

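Hyaluronan is a long sugar polymer of the matrix around cells, built at the cell surface by the hyaluronan synthases, bound by the receptor CD44 and cut by the hyaluronidases. Here 7 of its genes were followed, chosen by symbol rather than by a measured value, though earlier results of these data were known. They were the synthase genes HAS2 and HAS3, the receptor gene CD44, the hyaluronidase genes HYAL1, HYAL2 and HYAL3, and TNFAIP6, which encodes a secreted protein that modifies hyaluronan. All 7 were found by symbol among the 28512 genes of each library. HAS2 was the member that treatment moved most: it fell 16.3-fold with JQ1 and 26.1-fold with JQ1 plus GSK2801. CD44 and HAS3 differed most between the cell lines, whose media and JQ1 doses differed too. Both were also far higher in HCC1806 in the DMSO libraries, which had no JQ1.

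The synthases sit in the plasma membrane, join UDP-glucuronic acid and UDP-N-acetylglucosamine, and push the growing chain out of the cell. HYAL2 is anchored at the cell surface and makes the first cuts in long chains, and HYAL1 works in lysosomes on shorter ones. CD44 also carries signals into the cell, and hyaluronan and CD44 have long been studied in breast cancer invasion. TNFAIP6 moves protein chains from a serum protein onto hyaluronan, which thickens the coat.

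The study asked how triple-negative breast cancer cells respond to bromodomain inhibitors, alone and together. JQ1 blocks BET proteins, which bind acetylated histones, and GSK2801 blocks the related domains of BAZ2A and BAZ2B. Polyadenylated RNA was sequenced from the cell lines HCC1806, MDAMB231 and SUM159 after 72 h of JQ1 plus GSK2801, JQ1, GSK2801 or the vehicle DMSO. Each of the 12 libraries is 1 line under 1 treatment, so each treatment has n = 3 lines and no line has a repeat culture. JQ1, alone or in the combination, was given at 500 nM to HCC1806, 100 nM to MDAMB231 and 300 nM to SUM159, and GSK2801 at 10 µM to each line. The DMSO libraries had neither compound. HCC1806 grew in RPMI medium with serum. MDAMB231 and SUM159 grew in a DMEM/F12 mixture to which serum, hydrocortisone and insulin were added, so the line, the medium and the JQ1 dose of HCC1806 cannot be told apart. In such bulk libraries, fewer cells that make a transcript and less of it per cell cannot be told apart either.

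Values are the deposited normalized read counts (a signal scaled by the authors to 1 upper quartile in each library), and the libraries held 24193692 to 46802124 estimated reads. A gene was tested where its mean value over the 12 libraries was at least 10, which held for 14232 genes and for 6 of the 7 members (all except TNFAIP6). Each difference is the log2 fold change averaged across 3 lines, given with its standard error (SE), from limma with the line as a block, and a gene passed at a Benjamini-Hochberg adjusted p under 0.05. These p-values measure the spread of treatment responses between lines, not the spread between cultures. For libraries with JQ1 set against those without it, they may be too small. The reason is that a line's way of responding to JQ1 enters both its JQ1 library and its combination library. The same estimate of spread serves every comparison, so where JQ1 is on both sides or on neither, the p-values may instead be too large. Of 7 breast epithelial markers, 7 passed as higher in HCC1806 than in MDAMB231 and 5 as higher than in SUM159. KRT5, a basal keratin, and EPCAM, an epithelial surface protein, reached 9941 to 37479 and 11492 to 15287 in HCC1806, against 0 to 97.3 and 0.945 to 374.5 in the other lines. VIM, the mesenchymal filament gene, was at 46.9 to 173.3 in HCC1806 and at 90380 to 142226 in the other lines. CDH1 was at 14154 to 27120 in HCC1806 and 1.06 to 33.2 in the other lines, and ZEB1 at 1.07 to 9.60 against 1540 to 3085. The basal keratin genes KRT14 and KRT17 overlapped between HCC1806 and SUM159. KRT14 was at 1.14 to 91.6 in HCC1806, 0 to 0.754 in MDAMB231 and 1.17 to 42.5 in SUM159. KRT17 was at 2.11 to 255.4 in HCC1806, 0.667 to 3.77 in MDAMB231 and 46.7 to 88.0 in SUM159. CDH2, a mesenchymal cadherin gene, did not follow the split. It was at 705 to 1412 in HCC1806, 4.65 to 17.3 in MDAMB231 and 5173 to 7151 in SUM159. Of the receptors that a triple-negative tumour lacks by protein staining or amplification, ESR1 was at 102 to 138 in HCC1806 and 0 to 12.9 in the other lines, and PGR was at most 12.1 in any library. ERBB2 transcripts were present in every line, at 4325 to 6456 in HCC1806 and 1749 to 4142 in the other lines.

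By the GENCODE v29 annotation of the same build (hg38), the members lie on 5 chromosomes. HAS3 is at chr16:69105564-69118719 on the plus strand and shares 365 exon bases with CHTF8 on the opposite strand. CD44 is at chr11:35138870-35232402 on the plus strand and shares 63 exon bases with CD44-AS1 on the opposite strand. The hyaluronidase genes form a cluster on the minus strand of chromosome 3: HYAL3 at chr3:50292831-50299468, HYAL1 at chr3:50299889-50312381 and HYAL2 at chr3:50317790-50322906. HYAL3 shares 248 exon bases with NAA80 and 43 with IFRD2, both on its own strand. TNFAIP6 is at chr2:151357592-151380048 on the plus strand. The labels name both a stranded and another library kit, so reads from an overlap on opposite strands cannot be assigned for certain.

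The start regions of HAS3, CD44 and HYAL2 are shown because these 3 members differed between the lines in their response to JQ1. Each is the RefSeq promoter of 300 bases (250 before to 50 after the start, GRCh38.p14), at chr16:69107290-69107589 (plus strand), chr11:35138921-35139220 (plus strand) and chr3:50322696-50322995 (minus strand).
HAS3: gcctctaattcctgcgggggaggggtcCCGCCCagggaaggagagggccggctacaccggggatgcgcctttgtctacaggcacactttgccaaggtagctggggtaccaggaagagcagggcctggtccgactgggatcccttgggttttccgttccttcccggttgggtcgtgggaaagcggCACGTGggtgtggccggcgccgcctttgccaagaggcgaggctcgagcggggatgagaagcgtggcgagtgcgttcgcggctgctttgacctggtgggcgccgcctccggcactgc
CD44: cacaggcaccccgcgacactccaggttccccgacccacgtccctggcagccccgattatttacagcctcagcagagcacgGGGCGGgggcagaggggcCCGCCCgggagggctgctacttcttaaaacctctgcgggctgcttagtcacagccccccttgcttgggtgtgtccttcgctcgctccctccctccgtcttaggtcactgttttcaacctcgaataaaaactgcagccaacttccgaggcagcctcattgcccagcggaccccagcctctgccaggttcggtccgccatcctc
HYAL2: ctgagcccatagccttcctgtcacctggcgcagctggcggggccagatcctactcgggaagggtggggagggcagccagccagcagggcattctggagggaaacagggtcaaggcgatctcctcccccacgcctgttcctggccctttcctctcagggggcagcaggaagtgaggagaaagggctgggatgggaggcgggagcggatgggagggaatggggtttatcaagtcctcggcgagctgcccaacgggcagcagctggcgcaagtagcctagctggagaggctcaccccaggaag
Capitals mark matches on either strand to CACGTG (the E-box bound by MYC), GGGCGG (the GC box), TGANTCA (the AP-1 site) or TATAAA (the TATA box), which do not overlap one another here. HAS3 held 1 E-box and 1 GC box, CD44 held 2 GC boxes, and HYAL2 held none of the 4 motifs. Of 35116 RefSeq promoters of this length, 7.26% held the E-box, 45.0% the GC box, 7.71% the AP-1 site and 11.5% the TATA box. Among the other members with a promoter read here, HYAL1 and HYAL3 held 2 GC boxes in each promoter, and TNFAIP6 held 1 AP-1 site.

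**Figure D1:**
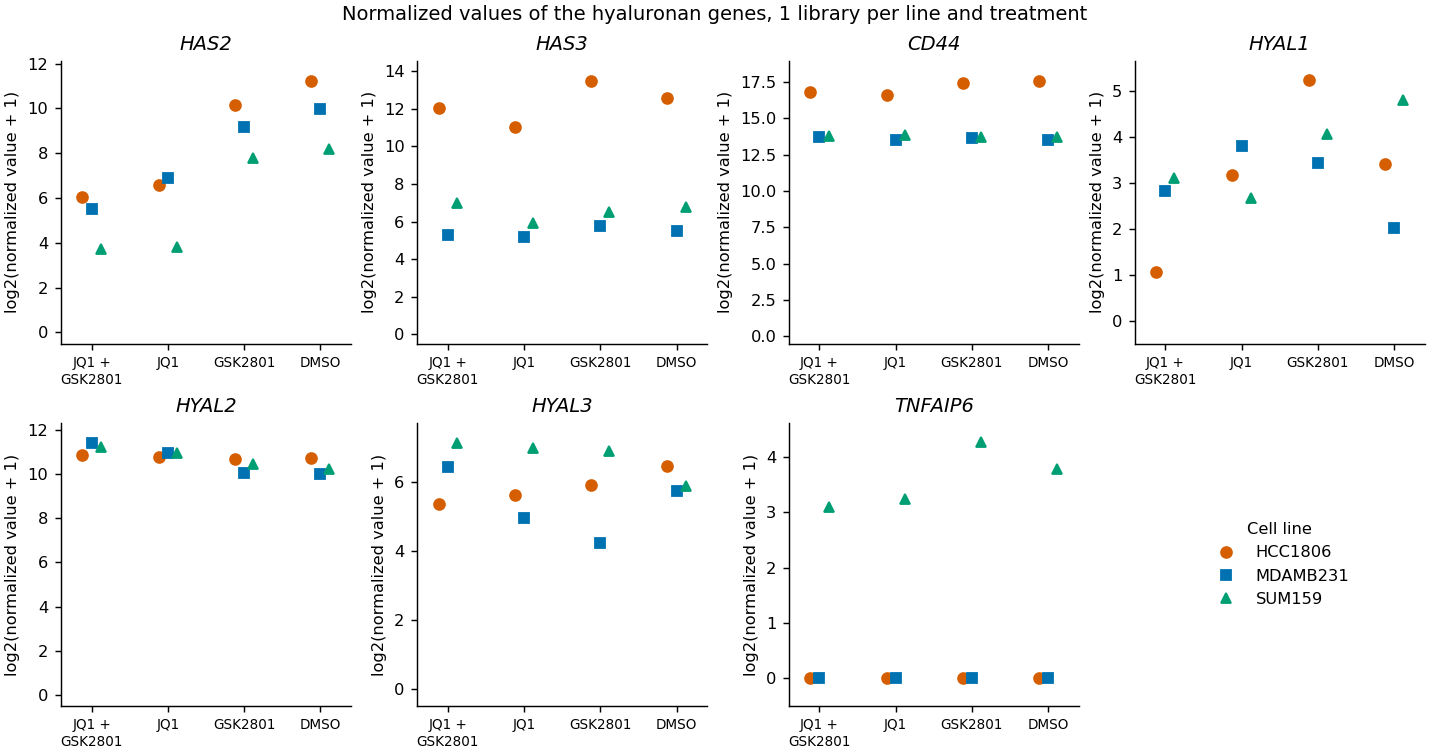
Each panel plots log2(normalized value + 1) of 1 gene on the y axis against treatment, with 1 point per library and the lines marked by colour and shape (small sideways offsets keep points apart). HAS2 was lower in all 6 libraries with JQ1 than in all 6 without it, CD44 and HAS3 were highest in HCC1806 under every treatment, and TNFAIP6 was above 0 in SUM159 only. The shares of all genes with such patterns were not counted.

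HAS2, the synthase most often linked to long chains and to migrating cells, was lower with JQ1 in every line. In HCC1806 its value was 65.0 with JQ1 plus GSK2801, 96.1 with JQ1 and 1124 with GSK2801, against 2375 with DMSO. In MDAMB231 it was 44.5 with the combination, 116.6 with JQ1 and 571 with GSK2801, against 1013 with DMSO. In SUM159 it was 12.1 with the combination, 13.1 with JQ1 and 216.6 with GSK2801, against 288.9 with DMSO. The highest of the 6 libraries with JQ1, MDAMB231 with JQ1 alone, lay below the lowest of the 6 without it, SUM159 with GSK2801. The share of all genes that separate in this way was not counted. The group means were 40.5 ± 26.7 with the combination, 75.2 ± 54.8 with JQ1, 637 ± 457 with GSK2801 and 1226 ± 1059 with DMSO (SD over lines, n = 3 each).

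With JQ1 alone HAS2 fell by 4.03 on the log2 scale (SE 0.32, n = 3 lines, limma adjusted p = 7.93e-04). With the combination it fell by 4.71 against DMSO (SE 0.32, adjusted p = 1.27e-04), and it fell by 3.93 against GSK2801 alone (SE 0.32, adjusted p = 2.98e-04). By size, its fall with JQ1 was the 9th largest of the 14232 genes tested, and its fall with the combination the 5th largest. Within lines, JQ1 alone left HAS2 24.5-fold below DMSO in HCC1806, 8.62-fold below in MDAMB231 and 20.6-fold below in SUM159. With the combination HAS2 was 36.0-fold below DMSO in HCC1806, 22.3-fold below in MDAMB231 and 22.2-fold below in SUM159. These are ratios of single libraries, and the line and its JQ1 dose cannot be told apart. Without the line as a block the adjusted p of these 3 comparisons was 0.390, 0.107 and 0.249, because the spread between lines then enters the error.

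GSK2801 alone left HAS2 lower than DMSO in 3 of 3 lines, 2.11-fold in HCC1806, 1.77-fold in MDAMB231 and 1.33-fold in SUM159. The mean difference of -0.77 (SE 0.32, 95% interval -1.49 to -0.06) did not pass adjustment over all genes (adjusted p = 1.00). Added to JQ1, GSK2801 again left HAS2 lower in 3 of 3 lines, by a mean of -0.68 on the log2 scale (95% interval -1.39 to 0.04, adjusted p = 0.703). The departure from additivity of both compounds was 0.10 ± 0.45 (SE, 95% interval -0.92 to 1.11), and it also did not pass. In SUM159 the 2 values with JQ1 rest on 12.8 and 12.3 estimated reads, so the smallest HAS2 levels are also the least precise.

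HAS2-AS1, an antisense RNA gene on chromosome 8, shares 201 exon bases with HAS2 on the opposite strand. It too was lower with JQ1 than without it in every line. Its values in HCC1806 were 8.52 with the combination, 7.59 with JQ1 and 48.6 with GSK2801, against 95.3 with DMSO. In MDAMB231 they were 8.90 with the combination, 5.74 with JQ1 and 26.1 with GSK2801, against 25.3 with DMSO. In SUM159 they were 1.14 with the combination, 2.87 with JQ1 and 7.38 with GSK2801, against 13.4 with DMSO, all near the lower limit of detection. With the combination HAS2-AS1 fell by 2.50 on the log2 scale (SE 0.44, adjusted p = 0.00332), and with JQ1 it fell by 2.45 (SE 0.44, adjusted p = 0.00642). HAS1, the other synthase gene, stayed at or below 2.0 in all 12 libraries and was not tested.

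HAS3 was above all a gene of HCC1806. In that line its value was 4274 with the combination, 2073 with JQ1 and 11313 with GSK2801, against 6099.7 with DMSO. In MDAMB231 it was 37.3 with the combination, 34.7 with JQ1 and 53.2 with GSK2801, against 44.5 with DMSO. In SUM159 it was 124.7 with the combination, 59.5 with JQ1 and 91.0 with GSK2801, against 107.8 with DMSO. Every HCC1806 library lay above every library of the other lines. With JQ1 alone HAS3 was lower than DMSO in 3 of 3 lines, with a mean of -0.92 (SE 0.36, 95% interval -1.74 to -0.10) that did not pass (adjusted p = 0.0987). The combination set against JQ1 was higher in 3 of 3 lines, by 0.73 (SE 0.36, 95% interval -0.08 to 1.55), which did not pass either (adjusted p = 0.726). None of the other HAS3 comparisons passed: -0.18 for the combination and 0.30 for GSK2801 against DMSO and -0.48 for the combination against GSK2801 (SE 0.36 each), and 0.43 for the departure from additivity (SE 0.51).

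The mix of the 2 synthase transcripts differed between treatments. With JQ1, alone or in the combination, HAS2 fell far more than HAS3 changed in each line. With GSK2801 alone HAS2 was lower in each line. HAS3 was then 1.85-fold higher in HCC1806, 1.19-fold higher in MDAMB231 and 1.18-fold lower in SUM159. Per kilobase of annotated exon (4.87 kb for HAS3 and 4.19 kb for HAS2), HAS3 made up 98.3% of the pair's level in HCC1806 with the combination, 94.9% with JQ1 and 89.6% with GSK2801, against 68.8% with DMSO. In MDAMB231 the HAS3 share of the level was 42.0% with the combination, 20.4% with JQ1 and 7.42% with GSK2801, against 3.64% with DMSO. In SUM159 it was 89.9% with the combination, 79.7% with JQ1 and 26.6% with GSK2801, against 24.3% with DMSO. HAS3 was thus the larger part of the pair in HCC1806 under every treatment, in SUM159 only with JQ1 present, and in MDAMB231 under none. These shares are single-library values with no test.

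**Figure D2:**
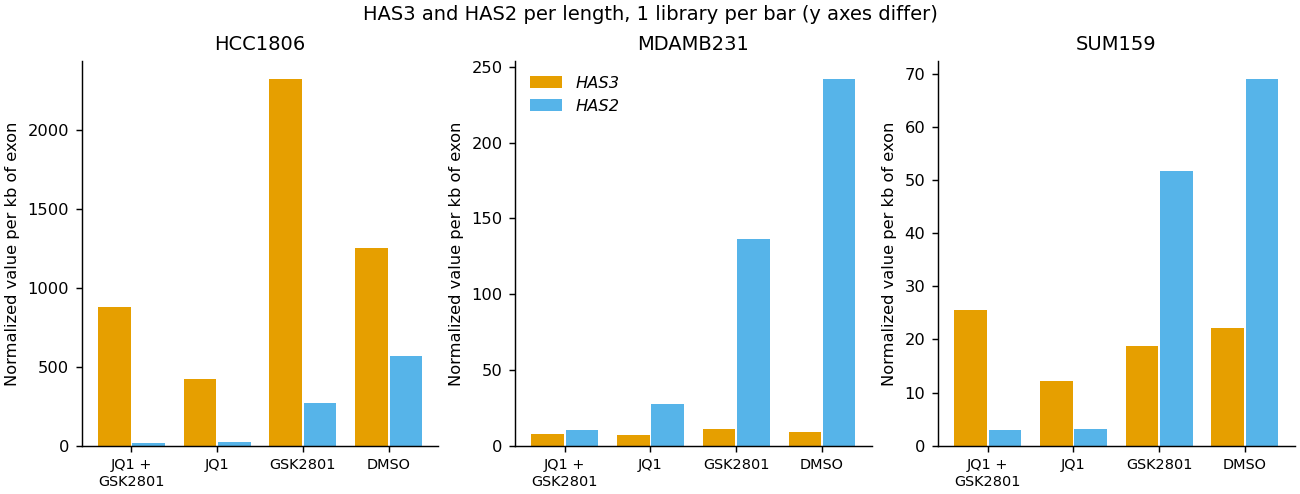
Bars give the normalized value per kilobase of exon of HAS3 and HAS2 (y axis, from 0, with its own range in each panel) in each treatment of each line, 1 library per bar. The HAS2 bar shrinks in each line with JQ1, and in SUM159 the taller bar is HAS2 with GSK2801 or DMSO and HAS3 with JQ1 alone or in the combination.

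CD44, the receptor, was among the most abundant transcripts of HCC1806. There its value was 115022 with the combination, 99546 with JQ1 and 177945 with GSK2801, against 191303 with DMSO. These made up 0.363%, 0.327%, 0.571% and 0.626% of the library's signal and placed CD44 13th, 12th, 4th and 2nd among its genes. In MDAMB231 the value was 13683 with the combination, 11487 with JQ1 and 13029.7 with GSK2801, against 11841 with DMSO. In SUM159 it was 14306 with the combination, 14947 with JQ1 and 13425 with GSK2801, against 13826 with DMSO. CD44 was lower with JQ1 than without it in HCC1806, where the 2 pairs of libraries did not overlap, and stayed within 11487 to 14947 in the 8 libraries of the other lines. Over all 3 lines it did not pass for JQ1 (-0.29, SE 0.21, 95% interval -0.77 to 0.19, adjusted p = 0.351) or for the combination against DMSO (-0.16, SE 0.21, 95% interval -0.64 to 0.32, adjusted p = 0.589). For GSK2801 against DMSO the difference was -0.0030 (SE 0.21, 95% interval -0.48 to 0.48). The values sum all CD44 splice forms, so no isoform was measured.

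HYAL2 supplied most of the hyaluronidase transcripts. Per kilobase of exon it made up 83.9% to 96.1% of the summed level of HYAL1, HYAL2 and HYAL3 in each of the 12 libraries. In HCC1806 its value was 1874 with the combination, 1753 with JQ1 and 1659 with GSK2801, against 1683 with DMSO. In MDAMB231 it was 2706 with the combination, 1986 with JQ1 and 1059 with GSK2801, against 1034 with DMSO. In SUM159 it was 2438 with the combination, 2008 with JQ1 and 1413 with GSK2801, against 1219.9 with DMSO. All 6 libraries with JQ1 lay above all 6 without it, though in HCC1806 by little. How many of all genes separate in this way was not counted, so this is a description only. HYAL2 rose 1.80-fold with the combination against DMSO (0.85 ± 0.22, SE, n = 3 lines, adjusted p = 0.0173) and 1.71-fold with the combination against GSK2801 alone (0.77 ± 0.22, adjusted p = 0.0294). JQ1 alone gave 0.57 ± 0.22, higher in 3 of 3 lines, and did not pass (95% interval 0.07 to 1.07, adjusted p = 0.0927). The rise against DMSO no longer passed without SUM159 (adjusted p = 0.163), without MDAMB231 (0.113), or without any 1 of their DMSO or combination libraries (0.0532 to 0.0743). The rise against GSK2801 was likewise lost without either line (0.179 each) or without any 1 of their GSK2801 or combination libraries (0.0711 to 0.117).

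HYAL3 was low and varied without a common direction. Its value was 40.0 with the combination, 48.6 with JQ1, 59.8 with GSK2801 and 87.5 with DMSO in HCC1806. In MDAMB231 it was 86.6 with the combination, 30.2 with JQ1 and 17.7 with GSK2801, against 52.2 with DMSO. SUM159 had 140.9 with the combination, 127.3 with JQ1 and 118.6 with GSK2801, against 57.9 with DMSO. HCC1806 was highest with DMSO, SUM159 was lowest with DMSO, and no treatment comparison passed (smallest adjusted p = 0.424). Its estimated reads were whole numbers in 0 of 12 libraries, those of HAS2 in 1, HYAL2 in 4, CD44 in 7 and HAS3 in 8. Salmon gives fractions where it divides reads between transcripts, so the values of these members depend in part on that division.

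HYAL1, the lysosomal hyaluronidase, stood near the lower limit of detection, with 1 to 31 reads per library. Its value was 1.07 with the combination, 7.97 with JQ1 and 36.3 with GSK2801 in HCC1806, against 9.61 with DMSO. In MDAMB231 it was 6.0 with the combination, 12.8 with JQ1 and 9.74 with GSK2801, against 3.01 with DMSO. SUM159 had 7.56 with the combination, 5.31 with JQ1 and 15.7 with GSK2801, against 26.95 with DMSO. The combination was lower than GSK2801 alone in 3 of 3 lines (-1.92, SE 0.81, 95% interval -3.75 to -0.09), and this did not pass (adjusted p = 0.105). At this depth the 95% interval of the JQ1 difference spans -2.04 to 1.63 on the log2 scale, so changes of that size were not detectable.

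TNFAIP6 was listed at 0 in all 8 libraries of HCC1806 and MDAMB231. In SUM159 its value was 7.56 with the combination, 8.50 with JQ1 and 18.4 with GSK2801, against 12.9 with DMSO. These values stand for 8, 8, 21 and 11 reads, and both libraries with JQ1 were below both without it. With a mean value of 3.94 over the 12 libraries it was not tested. With no filter on low values it passed no treatment comparison, with adjusted p between 0.445 and 1.00.

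Counted over the 6 members tested, JQ1 against DMSO called 1 member, HAS2 (lower), where 22.6% of all genes tested passed (9.52% higher and 13.1% lower). The combination against DMSO called 2 members, HYAL2 higher and HAS2 lower, where 34.8% of all genes passed (15% higher and 19.8% lower). The combination against GSK2801 called the same 2, where 29% of genes passed (11.8% higher and 17.2% lower). The counts of 1 and 2 of 6 are near these background shares and say nothing particular about the members. GSK2801 against DMSO, the combination against JQ1 and the departure from additivity called no member and 0% of all genes by limma. At an unadjusted p under 0.05 they had 161, 1031 and 171 of the 14232 genes. The 161 and 171 are less than a share of 0.05 of the genes, so not passing does not show that a member was unchanged. The median over the 6 members was -0.25 for JQ1 and -0.17 for the combination against DMSO, and -0.08 and -0.09 over all genes tested. The share of calls that were higher depended on the scaling: with median-of-ratios scaling it was 53.2% for JQ1 against DMSO and 51.0% for the combination against GSK2801, and with the authors' scaling 42.0% and 40.8%.

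**Figure D3:**
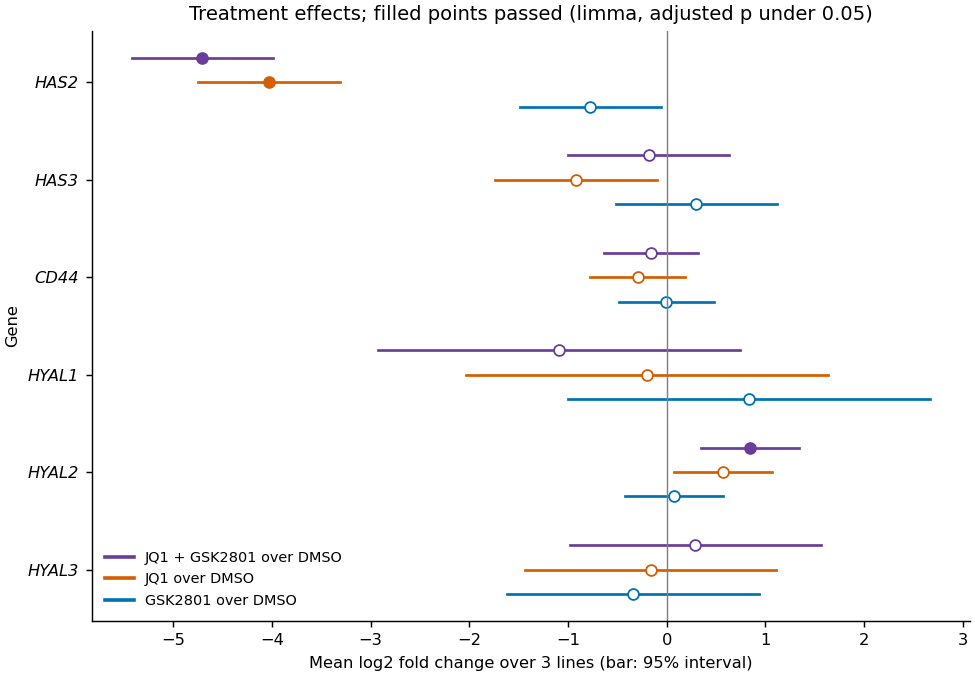
Points are mean log2 fold changes over 3 lines (x axis) for the 6 members tested (y axis), bars are 95% intervals, and filled points passed at a limma adjusted p under 0.05. HAS2 with the combination and with JQ1 lies far left of 0, at -4.71 and -4.03, and HYAL2 with the combination lies at 0.85.

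The lines themselves differed in these genes. Averaged over the 4 treatments, HAS3 was higher in HCC1806 than in MDAMB231 by 6.86 on the log2 scale (SE 0.31, adjusted p = 1.68e-07) and higher than in SUM159 by 5.73 (SE 0.31, adjusted p = 4.02e-07). CD44 was higher in HCC1806 than in MDAMB231 by 3.49 (SE 0.18, adjusted p = 3.40e-07) and higher than in SUM159 by 3.32 (SE 0.18, adjusted p = 4.36e-07). HAS2 was higher in HCC1806 than in SUM159 by 2.63 (SE 0.27, adjusted p = 2.44e-05) and higher in MDAMB231 than in SUM159 by 2.02 (SE 0.27, adjusted p = 2.02e-04). Its order was therefore HCC1806, MDAMB231 and SUM159, and the first pair did not differ beyond the spread (0.62, SE 0.27, adjusted p = 0.0706). HAS3 was lower in MDAMB231 than in SUM159 by -1.12 (SE 0.31, adjusted p = 0.0120), and HYAL3 by -1.39 (SE 0.49, adjusted p = 0.0335). The HYAL3 call was lost without the JQ1 or GSK2801 library of either line, without the SUM159 combination library, or with only these 2 lines in the fit (adjusted p between 0.0613 and 0.114). MDAMB231 and SUM159 did not differ in CD44 beyond the spread (-0.18, SE 0.18, 95% interval -0.59 to 0.24).

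HCC1806 against SUM159 called 3 of the 6 members, all higher, where 70.0% of genes passed (34.5% higher and 35.5% lower). HCC1806 against MDAMB231 called 2, both higher, where 70.3% passed (36.5% higher and 33.8% lower), and MDAMB231 against SUM159 called 1 higher and 2 lower, where 60.4% passed (28.5% higher and 32.0% lower). With so many genes differing between lines, such counts are background, and the sizes for HAS3 and CD44 are the description. Quantile normalization moved the median of all genes by -0.11 for HCC1806 against SUM159 and by -0.14 for HCC1806 against MDAMB231, which is small beside these differences. The residual of this fit is the spread of responses between lines, since no line was cultured more than once per treatment.

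The response to JQ1 was then compared between HCC1806 and the other lines in a model that gave each line its own JQ1 and GSK2801 effect. This interaction term passed for 3 of the 6 members, all lower in HCC1806, where 25.1% of all genes passed (14.5% higher and 10.6% lower in the authors' scaling). Of the genes called, 57.6% were higher in HCC1806 with the authors' scaling and 45.2% with median-of-ratios scaling. For CD44 the JQ1 response, taken as the mean of JQ1 over DMSO and the combination over GSK2801, was -0.79 in HCC1806, 0.01 in MDAMB231 and 0.10 in SUM159. The difference between HCC1806 and the mean of the others was -0.84 ± 0.13 (SE, adjusted p = 0.00505). For HYAL2 the response was 0.12 in HCC1806, 1.15 in MDAMB231 and 0.75 in SUM159, a difference of -0.83 ± 0.13 (adjusted p = 0.00561). For HAS3 it was -1.48 in HCC1806, -0.42 in MDAMB231 and -0.20 in SUM159, a difference of -1.17 ± 0.34 (adjusted p = 0.0429). The HAS3 mean of SUM159 joined pairs of opposite sign, -0.85 for JQ1 over DMSO and 0.45 for the combination over GSK2801.

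In HCC1806, CD44 and HAS3 thus stood lower with JQ1 both with and without GSK2801, while HYAL2 hardly moved. In MDAMB231 and SUM159, HYAL2 stood higher with JQ1 and CD44 near its level without it. HAS2 responded in all lines, with -4.35 in HCC1806, -3.38 in MDAMB231 and -4.21 in SUM159, and its difference of -0.56 ± 0.27 did not pass (95% interval -1.20 to 0.09, adjusted p = 0.174). Under pseudocount 10 and under quantile normalization the HAS2 difference passed, with adjusted p of 0.0349 and 0.0172. The CD44 call was lost without the HCC1806 library with DMSO (adjusted p = 0.0602) or with JQ1 (0.0615). The HYAL2 call was lost without any 1 of the 4 HCC1806 libraries (0.0776 to 0.0869), and the HAS3 call in 11 of 19 alternatives, which include any 1 HCC1806 or MDAMB231 library left out. What this model leaves as residual is how far each line departs from additivity, not a spread between cultures.

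**Figure D4:**
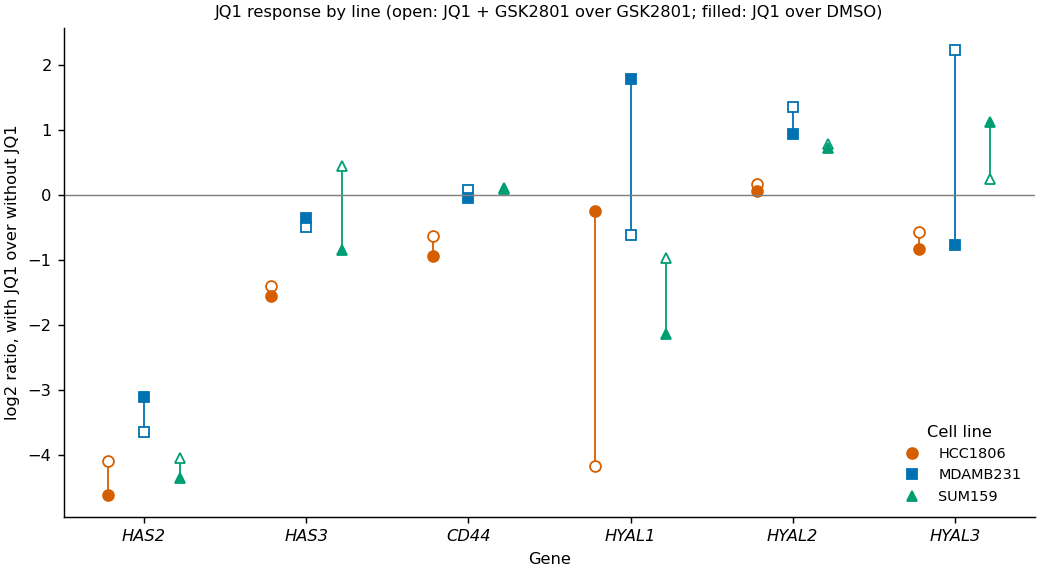
For each member tested (x axis) and line, the y axis gives the log2 ratio of a library with JQ1 to its partner without JQ1, filled for JQ1 over DMSO and open for the combination over GSK2801, joined by a line. HAS2 lies between -4.61 and -3.11 in every line, CD44 is below 0 in both HCC1806 pairs, HYAL2 is near 0 in HCC1806 and above 0.7 in the other lines, and the long bars of HYAL1 and HYAL3 show pairs that do not repeat each other. The HAS3 bar of SUM159 crosses 0, from -0.85 to 0.45.

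Other genes of hyaluronan biology were described by lists, whose counts stand beside the shares of all genes tested: 9.52% higher and 13.1% lower with JQ1, and 15% higher and 19.8% lower with the combination, each against DMSO. The lists hold 3 to 11 tested genes each, so these counts show nothing particular to a list. Of the 10 tested enzymes that make the 2 sugar nucleotides (11 listed), 3 rose and 1 fell with JQ1 against DMSO, and 4 rose and 1 fell with the combination. The list's median was 0.07 for JQ1 and 0.13 for the combination, against -0.08 and -0.09 for all genes. GFPT2, which like GFPT1 starts the route to UDP-N-acetylglucosamine, rose by 1.29 with the combination (SE 0.13, adjusted p = 2.94e-04) and by 0.77 with JQ1 (SE 0.13, adjusted p = 0.00491). Its value in SUM159 was 7409 with the combination, 4747 with JQ1 and 3926 with GSK2801, against 2406 with DMSO. GFPT1 rose by 0.33 with the combination (SE 0.09, adjusted p = 0.0230), and its 0.28 with JQ1 did not pass. NAGK, which recovers free N-acetylglucosamine, rose by 1.17 with the combination (SE 0.22) and by 1.16 with JQ1 (SE 0.22). PGM3, the next step of that route, rose by 0.54 with the combination and by 0.51 with JQ1 (SE 0.09 each), and UAP1L1, a relative of the last enzyme, gave -0.68 with the combination and -0.63 with JQ1, and passed both (SE 0.18 each). UGDH, which makes UDP-glucuronic acid, gave -0.41 with the combination and -0.26 with JQ1 (SE 0.25 each) and passed neither.

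Of 7 tested genes for other hyaluronan receptors and binding proteins (12 listed), 1 rose and 1 fell with JQ1, and 1 rose and 2 fell with the combination, where 22.6% and 34.8% of all genes passed in either direction. The list's medians were -0.77 and -0.81, against -0.08 and -0.09 for all genes. HABP4, an intracellular hyaluronan-binding protein, rose by 1.04 with the combination and by 0.81 with JQ1 (SE 0.12 each). C1QBP, a mostly mitochondrial protein also known to bind hyaluronan, fell in both comparisons, with -0.65 for the combination and -0.77 for JQ1 (SE 0.12 each). TLR2, an innate immune receptor linked to hyaluronan fragments, fell by 1.42 with the combination (SE 0.37, adjusted p = 0.0166), and its -0.99 with JQ1 did not pass (adjusted p = 0.0818). HMMR, the other classic hyaluronan receptor, which also acts on the mitotic spindle, gave -1.01 with the combination and -0.59 with JQ1 (SE 0.51 each) and passed neither. LYVE1, the receptor of lymphatic vessels, was listed at 0 in all 12 libraries.

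Of 16 genes for proteoglycans and linkers of the hyaluronan coat, 3 were tested and none passed for JQ1 or the combination against DMSO by limma. VCAN, the large coat proteoglycan versican, gave -0.02 with the combination and -0.39 with JQ1 (SE 0.56 each). Among 6 tested genes of other breakdown enzymes (8 of 11 symbols were found), 1 rose with JQ1 and with the combination, where 9.52% and 15% of all genes rose. That gene was IDUA, a lysosomal enzyme that acts on dermatan and heparan sulfate rather than on hyaluronan, and it rose by 2.98 with the combination and by 2.64 with JQ1 (SE 0.35 each, adjusted p = 5.47e-04 and 0.00217). CEMIP, which binds hyaluronan and takes part in its breakdown outside lysosomes, gave -0.54 with the combination and -1.50 with JQ1 (SE 0.87 each) and passed neither.

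Of 11 tested CD44 partners (12 listed), 2 fell with JQ1, and 1 rose and 2 fell with the combination, near or below the 22.6% and 34.8% of all genes that passed. The list's medians were -0.18 and -0.42, against -0.08 and -0.09 for all genes. SPP1, the CD44 ligand osteopontin, fell in both comparisons, with -2.56 for the combination and -3.13 for JQ1 (SE 0.86 each, adjusted p = 0.0468 and 0.0318). Its value in HCC1806 was 18.1 with the combination, 25.1 with JQ1 and 337.5 with GSK2801, against 493.5 with DMSO, and in MDAMB231 it was at most 2.44. SRGN, a secreted proteoglycan that CD44 also binds, fell in both comparisons, with -1.93 for the combination and -2.19 for JQ1 (SE 0.65 each, adjusted p = 0.0470 and 0.0413). RDX, which links CD44 to actin, rose by 0.30 with the combination (SE 0.10, adjusted p = 0.0400). Of 9 tested neighbours of the HYAL cluster, 1 fell with both (13.1% and 19.8% of all genes fell), IFRD2, with -1.87 for the combination and -1.54 for JQ1 (SE 0.21 each), while HYAL2 of the same cluster rose with the combination.

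**Figure D5:**
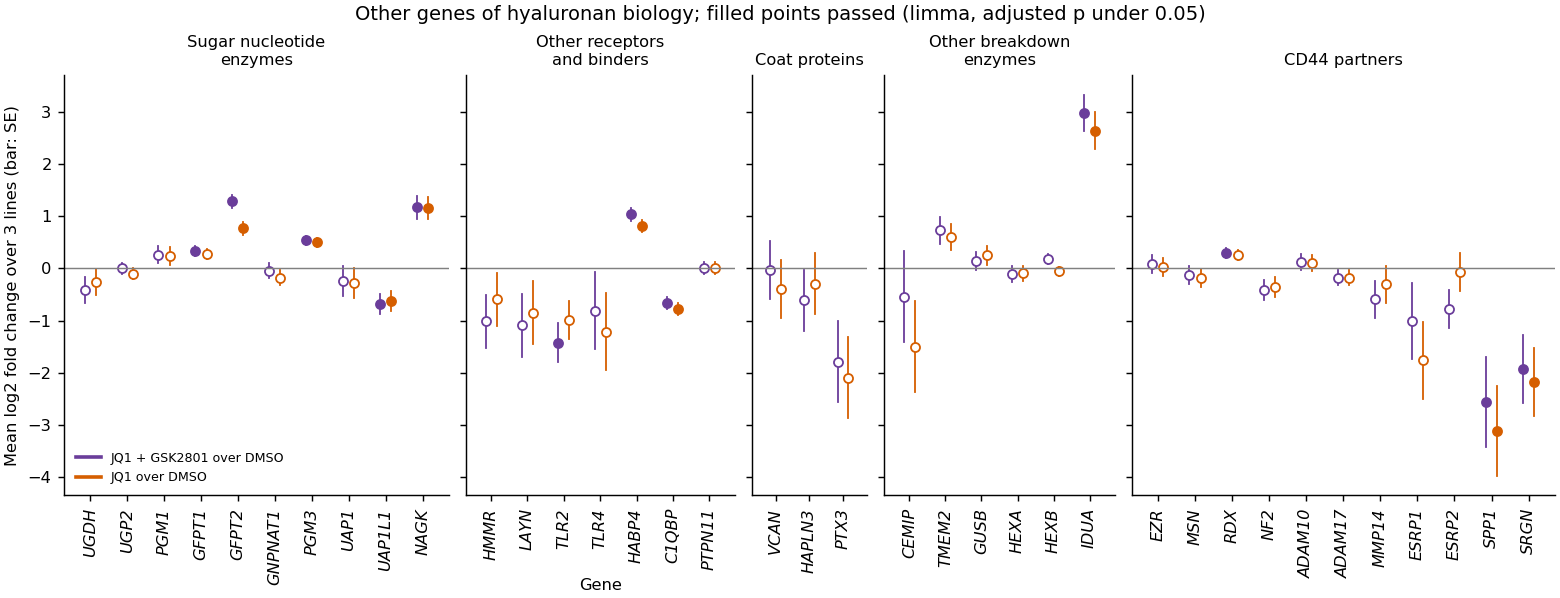
Each point is the mean log2 fold change over 3 lines (y axis, bar: SE) of 1 tested gene of the lists (x axis), with the combination and JQ1 set against DMSO, and filled points passed at a limma adjusted p under 0.05. IDUA is highest at 2.98 and SPP1 lowest at -3.13, and none of the 3 coat proteins is filled.

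Markers of cell types that such cultures should lack did not pass in any treatment comparison by limma (4 of the 8 were tested), while CD68 and PLIN1 passed the interaction term. Their summed value, which was mostly CD68 in HCC1806 and MDAMB231, was 1011 to 8780.2 with the combination, 363 to 4290.3 with JQ1, 1300.3 to 3861 with GSK2801 and 1036 to 3136 with DMSO. In SUM159, PTPRC, the leukocyte gene, was at 2.83 with the combination, 4.25 with JQ1 and 60.4 with GSK2801, against 421.9 with DMSO, and CD3E was at 0 to 1.17. The endothelial gene PECAM1 was at 290.1 with the combination, 227 with JQ1 and 1145 with GSK2801 in SUM159, against 730.1 with DMSO. The adipocyte gene PLIN1 was at 44.4 with the combination, 8.50 with JQ1 and 382 with GSK2801 in SUM159, against 42.2 with DMSO. PTPRC and PECAM1 were thus lower with JQ1 in SUM159, as HAS2 was. In HCC1806 and MDAMB231 PTPRC, PECAM1 and PLIN1 were at most 8.54, 5.48 and 13.7, while CD68 reached 1273 in HCC1806 and 8767 in MDAMB231. The part of these marker genes in the HAS2 result was not tested.

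By the shape of its profile, HAS2 was most like TESMIN, INO80D and TWISTNB (Pearson r of log2 values 0.980, 0.979 and 0.976 over the 12 libraries). Over the 9 log2 ratios to DMSO it was most like FAM57A, ZNF37A and TBKBP1 (0.991, 0.986 and 0.984). HAS3 was most like HSD17B12, SPTLC1 and RBBP6 (0.995, 0.990 and 0.990), and CD44 most like LINC01096, PRDM16 and HOXD9 (0.998, 0.997 and 0.997). Over the ratios, CD44 was most like ANO1-AS1, CALML5 and LINC01096 (0.980, 0.979 and 0.9753). HYAL2 was most like TMEM184B, FBXW5 and ESYT1 (0.961, 0.949 and 0.947). The best matches of HYAL3, which were CSNK1G2, AHRR and TTLL12, reached 0.874, 0.857 and 0.831, and those of HYAL1, THAP3, APOL1 and ZNF337, reached 0.813, 0.808 and 0.805. These are descriptions: the 12 points share 3 lines, and profiles of HAS3 and CD44 are set mostly by the gap between HCC1806 and the other lines.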

How the data were processed

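The authors' deposited values are signal: estimated read counts per gene symbol, scaled by 1 factor per library so that the 75th percentile of values above 0 is 1663.93. Per the submitters' processing notes, reads were processed with STAR 2.4 and Salmon 0.60 on hg38; the scaling step and annotation are not given in the sources used here. The scale was checked on the values: 67.2% to 69.3% of values above 0 were whole multiples of 1 read's value (tolerance 0.02), too few for a count model. Each library held 28539 entries; 27 symbols turned into dates (0.168% to 0.218% of the signal) were left out. Precision is limited by 24193692 to 46802124 estimated reads and by 1 library per line and treatment.

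On the scale of log2(value + 1), limma 3.58.1 (R 4.3.3) was fitted with a variance trend, treatment (4 levels) and the cell line as a block, giving 6 residual and 3.02 prior degrees of freedom. Replicate numbers mark the cell line, which pairs the libraries. The model with a JQ1 and a GSK2801 effect per line had 3 residual and 4.48 prior degrees of freedom. P-values were adjusted over all 14232 genes by the Benjamini-Hochberg method. The code was tested on simulated data. Genes named beside the members were those of the lists that passed for JQ1 or the combination against DMSO (at most 5 per list and contrast), the genes that define a list, and the 3 genes of most similar profile per member. The members, lists and tests were chosen with earlier results of these data known. Alternatives covered the pseudocount (0.1 and 10), the filter (none and 100), the scaling, the variance trend, the block and each library or line left out. RefSeq promoters were matched by symbol for 6 of the 7 members, and chromosome 8, where HAS2 lies, was left out of this step.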

Additional observations from a re-analysis of the deposited data

Results flagged for a closer look

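For 3 members the response to JQ1 differed between cell lines by a test of the difference itself, the interaction term of the limma model, which 25.1% of all genes tested passed. The CD44 response of HCC1806 minus the mean of SUM159 and MDAMB231 was -0.8437 on the log2 scale, with 99546 with JQ1 and 191303 with DMSO in HCC1806. The same difference was -1.169 for HAS3, where all 3 lines were lower with JQ1 than with DMSO. In SUM159, though, HAS3 was higher with the combination than with GSK2801, by 0.45 on the log2 scale. For HYAL2 the difference of HCC1806 from the other lines was -0.8322. Its values were higher with JQ1 in MDAMB231 and SUM159 and hardly differed in HCC1806. The 3 differences have the same sign, and HCC1806 also had the highest JQ1 dose and its own medium, which cannot be told apart from the line. Without the HCC1806 library with DMSO or with JQ1 none of the 3 passed, and HAS3 lost its call in 11 of 19 alternatives.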

How the results depend on the processing

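HAS2 passed in 23 of 24 alternatives in each of its 3 treatment comparisons, with log2 changes between -4.49 and -3.73 for JQ1, -4.89 and -4.33 for the combination, and -4.15 and -3.56 for the combination against GSK2801. The exception was the fit with no replicate block, in which 0 members passed for JQ1 against DMSO, the combination against DMSO and the combination against GSK2801. With only the 6 libraries compared, 1 member passed for the combination against DMSO and against GSK2801, since HYAL2 did not (adjusted p = 0.0977 and 0.126). Leaving out single libraries or lines gave 1 to 2 members for each of these 2 comparisons, 1 for JQ1, and 0 for GSK2801, the combination against JQ1 and the departure from additivity. It gave 3 to 4, 2 to 3 and 2 to 3 members for HCC1806 against SUM159, HCC1806 against MDAMB231 and MDAMB231 against SUM159, and 0 to 3 for the JQ1 response of HCC1806. That last count was 0 without the HCC1806 library with DMSO or with JQ1. HYAL3 in MDAMB231 against SUM159 lost its call in 6 of 19 alternatives. No value that passed changed sign. Of 60 pairs of a member and a comparison, 16 passed as reported, 4 in some alternative only and 40 in none, and 58 of the 900 alternative values of these 40 had another sign. Low counts limit HYAL1 and TNFAIP6.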
